A study of Mus musculus with 11 samples.

Results

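The pore subunit genes of voltage-gated calcium channels were examined, 8 of the 32531 genes in the count tables: Cacna1a, Cacna1b, Cacna1c, Cacna1d, Cacna1e, Cacna1g, Cacna1h and Cacna1i. They were taken by symbol as alpha-1 subunits of the P/Q, N, L, R and T types, and all 8 were found in all 11 libraries with 120 to 11574 counts each. The libraries come from TRAP-seq, sequencing of RNA bound to affinity-purified ribosomes, in adult Glt25d2-EGFP/Rpl10a mice of the DU9 line, genotype Glt25d2-TRAP DU9, which every group carries. Regulatory DNA of Glt25d2 (now Colgalt2), active in layer 5 pyramidal neurons of the cortex, drives the EGFP-tagged ribosomal protein Rpl10a, and antibodies to EGFP recover tagged ribosomes and their RNA, the immunopurified (IP) fraction. The treatments of a short-access intravenous study have 3 IP libraries each: saline self-administration, cocaine self-administration and a yoked control; 1 input library comes from the saline group and 1 unbound library (RNA left after the pull-down) from the cocaine group.

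The sources used here do not give what the yoked animals received, the sex and exact age of the mice, or whether a library is 1 animal or a pool. P-values therefore cover only the spread among these libraries, which may be technical. The labels name the cerebral cortex as tissue, whereas the extraction text names the whole striatum. Each IP group was sequenced on its own lane (saline 6, cocaine 2, yoked 3), so lane and treatment cannot be told apart. The input was on lane 7 and the unbound library on lane 1, so lane and fraction cannot be told apart either.

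The alpha-1 subunit of a voltage-gated calcium channel forms the pore and the voltage sensor, and it sets the channel's class. High-voltage-activated channels open on strong depolarization: the P/Q type (Cacna1a) and N type (Cacna1b) drive transmitter release at presynaptic terminals, the L type (Cacna1c and Cacna1d) sits mostly on cell bodies and dendrites and couples activity to gene transcription, and the R type (Cacna1e) acts in dendrites and spines as well as in terminals. Low-voltage-activated T-type channels (Cacna1g, Cacna1h and Cacna1i) open near the resting potential and support burst firing and rhythmic activity. High-voltage-activated pores are assembled with beta and alpha-2-delta subunits, which control their traffic to the membrane and their gating.

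In the GENCODE M21 annotation of mm10, Cacna1a lies on the plus strand of chromosome 8 (84388440 to 84640246) and Cacna1i on the plus strand of chromosome 15 (80287238 to 80398279). The other 6 lie on minus strands: Cacna1b on chromosome 2 (24603887 to 24763152), Cacna1c on chromosome 6 (118587240 to 119196418), Cacna1d on chromosome 14 (30039939 to 30491455), Cacna1e on chromosome 1 (154390731 to 154884501), Cacna1g on chromosome 11 (94408391 to 94474198) and Cacna1h on chromosome 17 (25374285 to 25433783). All are protein-coding genes with long messages: the union of their exons ran from 9763 bp in Cacna1h to 25228 bp in Cacna1e, and the median of the 8 was 10777.5 bp against 4426 bp over the tested genes. A count is a sum over all exons, and does not say which exon, UTR or splice form a read came from. Exons of 3 members overlap a gene on the opposite strand, Cacna1d with Chdh over 589 bp, Cacna1a with the antisense gene Gm16183 over 435 bp and Cacna1h with Tpsg1 over 158 bp; reads from these stretches cannot be told apart, since the strand setting of the counting is unknown here.

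IP libraries held 33633470 to 53862653 gene counts, the input 39901884 and the unbound library 20926712. The 3 IP libraries numbered 1 in the labels, 1 in each treatment, stood apart from the other 6. In them 6.28% to 7.29% of reads fell outside annotated genes, against 10.3% to 15.5% in the other IP libraries, and 6 nuclear noncoding RNAs summed to 209 to 419 CPM (counts scaled to a common library size) against 2408 to 7418. The input had 13.3% of reads outside genes and 5218 CPM of these RNAs. Markers of layer 5 pyramidal tract neurons, 10 of 10 detected, summed to 918 to 1080 CPM in them against 486 to 650 CPM in the other IP libraries, with 512 CPM in the input. Striatal projection neuron markers, 8 of 8 detected, summed to 260 to 357 CPM in the IP libraries numbered 1 and 356 to 410 CPM in the others, with 379 CPM in the input. On each of these measures the input lay within the range of the IP libraries not numbered 1. Because of this split, the members' differences between treatments are also given without the libraries numbered 1 or within each number; markers and partner genes are given from the full fit.

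Levels are compared between genes as RPKM, which is CPM divided by the length of the exon union in kilobases, with library sizes scaled over all 11 libraries. Over the 9 IP libraries the N-type gene Cacna1b was highest at 14.0 ± 3.01 RPKM (mean ± SD, n = 9), followed by the R-type gene Cacna1e at 9.85 ± 2.33 RPKM. These 2 genes together exceeded the summed level of the other 6 in every library. The L-type gene Cacna1c followed at 4.23 ± 1.49 RPKM, the P/Q-type gene Cacna1a at 3.59 ± 0.479 RPKM and the T-type gene Cacna1i at 3.19 ± 0.536 RPKM. The lowest were Cacna1d at 2.10 ± 0.716 RPKM, Cacna1h at 1.53 ± 0.554 RPKM and Cacna1g at 1.53 ± 0.172 RPKM.

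Several neighbours in this order did not differ beyond their spread. Cacna1b was above Cacna1e, Cacna1e above Cacna1c, Cacna1a above Cacna1i and Cacna1i above Cacna1d in 9 of 9 IP libraries. Cacna1c exceeded Cacna1a in 6 of 9, Cacna1d exceeded Cacna1h in 6 of 9 and Cacna1h exceeded Cacna1g in 3 of 9. In each of these 3 pairs the exceptions to the rest were exactly the libraries numbered 1. The order of the top pair rests on the length used: divided by the longest transcript (14921 bp for Cacna1e, 9736 bp for Cacna1b), Cacna1e had 16.6 RPKM and Cacna1b 14.3 RPKM, and Cacna1b was above Cacna1e in 0 of 9. With that length Cacna1i was above Cacna1d in 5 of 9.

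**Figure D1:**
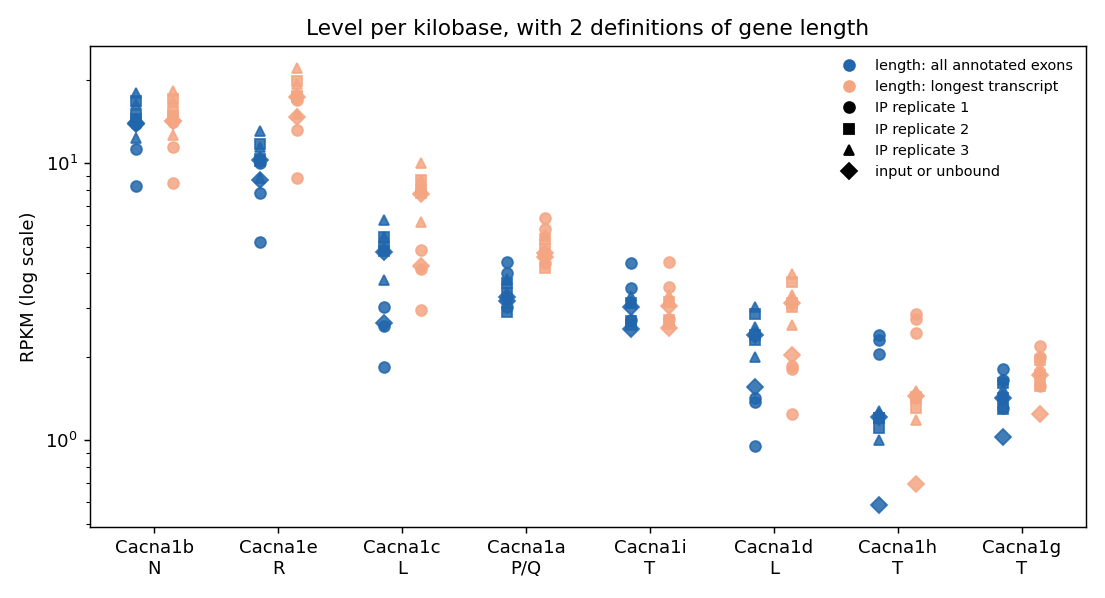
Level of each pore subunit gene in RPKM on a log axis in the 9 IP libraries, the input and the unbound library, with exon-union length (blue) and longest-transcript length (orange), ordered by the IP mean with the first. With exon-union length Cacna1b and Cacna1e lie above the other 6 genes within every library, and the circles of the IP libraries numbered 1 are low for Cacna1c and Cacna1d and high for Cacna1h.

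As a share of the summed RPKM of the 8 genes, the 3 T-type genes held 20.8% to 23.9% in the IP libraries numbered 1, above the 11.7% to 15.9% of the other 6, beside 14.1% (input) and 12.1% (unbound). The 2 L-type genes held 10.8% to 11.5% in number 1 libraries, below the 16.1% to 18.6% of the other 6, beside 17.9% (input) and 12.3% (unbound). The retinal L-type gene Cacna1f had 3 to 14 counts per library and the skeletal muscle L-type gene Cacna1s 2 to 23, whereas the sodium leak channel gene Nalcn, a relative of this family, had a mean of 53.1 CPM over the IP libraries.

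The first question of the design is whether cocaine self-administration changed RNA on tagged ribosomes relative to saline self-administration. None of the 8 genes passed the test (edgeR quasi-likelihood on counts with Benjamini-Hochberg adjustment over 16417 genes, adjusted p 0.9998 for each), and percent called over all genes was 0, with 168 genes at an unadjusted p under 0.05. DESeq2 called 0 members as well. All 8 fitted changes were below 0, with a median of −0.26 on the log2 scale beside 0.03 over all tested genes, of which 46.6% were below 0. The 8 genes were read in the same libraries, so their shared sign is not 8 separate observations.

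Cacna1a, whose P/Q channel is the main trigger of release at many central synapses, had 45.2, 39.1 and 42.5 CPM in the saline libraries 1, 2 and 3, and 34.7, 33.2 and 38.0 CPM in the cocaine libraries. Every cocaine library was below every saline library, a separation that held for 1 of 8 members and for 2.28% of tested genes. No member had all cocaine libraries above all saline libraries, as 3.11% of tested genes had. The fitted difference was −0.26 ± 0.15 (log2, SE). Cacna1b, the N-type gene, had 110.1, 149.6 and 160.6 CPM in saline and 83.0, 143.5 and 124.0 CPM in cocaine libraries, a difference of −0.26 ± 0.24. The groups overlapped, and the lowest library of each was number 1.

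The L-type genes showed a wider spread inside each group than between groups. Cacna1c, the main L-type pore of cortical neurons, had 54.0, 104.9 and 112.9 CPM in saline and 39.1, 102.3 and 81.4 CPM in cocaine libraries (−0.29 ± 0.42). Cacna1d, an L-type pore that opens at lower voltages than Cacna1c, had 17.2, 30.4 and 31.9 CPM in saline and 12.1, 29.1 and 25.4 CPM in cocaine libraries (−0.26 ± 0.40). In both genes library 1 was by far the lowest of each treatment. Cacna1e, the R-type gene, had 194.5, 262.2 and 283.8 CPM in saline and 132.0, 257.2 and 225.9 CPM in cocaine libraries (−0.27 ± 0.26), with the same low library 1.

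Among the T-type genes, Cacna1g had 16.5, 14.5 and 16.5 CPM in saline and 13.3, 13.2 and 15.6 CPM in cocaine libraries (−0.18 ± 0.16). Cacna1i had 34.6, 25.9 and 32.3 CPM in saline and 27.0, 26.6 and 31.8 CPM in cocaine libraries (−0.12 ± 0.19). Both groups overlapped, and neither gene had its lowest saline value in library 1. Cacna1h had 22.2, 10.8 and 11.8 CPM in saline and 20.1, 11.7 and 9.87 CPM in cocaine libraries (−0.11 ± 0.40). Here library 1 was the highest of each treatment, the reverse of the L-type genes.

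**Figure D2:**
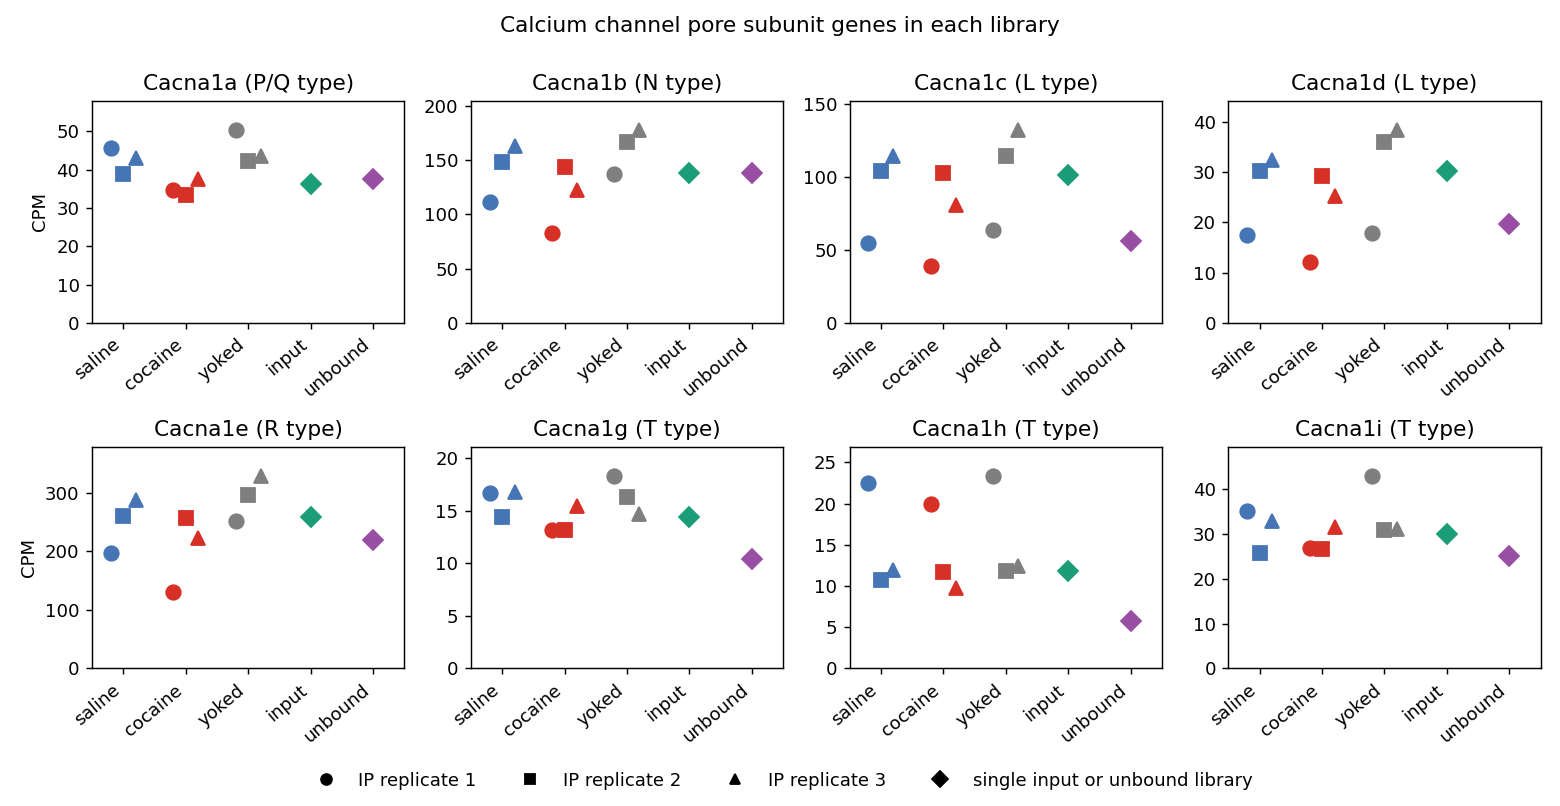
CPM of each pore subunit gene, scaled over all 11 libraries, with 1 point per library and the replicate number of the labels as its shape. Among IP libraries Cacna1c and Cacna1d are lowest and Cacna1h is highest in library 1 of every treatment, and for Cacna1a alone the cocaine points (33.3 to 37.6 CPM on this scaling) lie below all saline points (38.8 to 45.7 CPM).

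Compared within replicate numbers, the median of the 8 cocaine over saline differences was −0.39 for number 1, −0.05 for number 2 and −0.29 for number 3. Cacna1a, Cacna1b, Cacna1c, Cacna1d, Cacna1e and Cacna1g were lower in cocaine at all 3 numbers, while Cacna1h was higher by 0.11 and Cacna1i by 0.04 at number 2. Without cocaine library 1 the median moved to −0.07, and without all libraries numbered 1 it was −0.19. With a term for replicate number, adjusted p ran from 0.377 to 0.797 in edgeR. In that fit 5 members (Cacna1a, Cacna1b, Cacna1c, Cacna1d and Cacna1e) had an unadjusted p under 0.05, as did 2023 of the 16417 tested genes. When a trend of expression on gene length was removed from each library, the median was −0.06, and Cacna1h (0.02) and Cacna1i (0.00) were no longer below 0. Spearman's rho between gene length and the library's deviation from the gene mean was −0.46 in cocaine library 1 and −0.21 in saline library 1, against 0.15 to 0.28 in the other saline and cocaine libraries. The part of length in the difference between treatments was otherwise not tested.

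Yoked controls were next set against the same saline libraries. No member passed the test (edgeR, Benjamini-Hochberg adjusted p 0.99999 for each), percent called was 0, 66 genes had an unadjusted p under 0.05, and DESeq2 called 0 members. All 8 fitted differences were above 0, with a median of 0.17 beside 0.00 over all genes. The yoked libraries 1, 2 and 3 had 50.1, 42.1 and 42.9 CPM of Cacna1a (0.09 ± 0.15) and 136.6, 166.0 and 175.0 CPM of Cacna1b (0.18 ± 0.24). Both ranges overlapped those of saline.

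Cacna1c had 63.7, 114.2 and 130.1 CPM in yoked libraries (0.18 ± 0.42) and Cacna1d 17.9, 35.9 and 37.7 CPM (0.20 ± 0.40). As in the other treatments, library 1 had the lowest value of both. Cacna1e had 251.1, 295.2 and 324.2 CPM, the largest fitted difference of the 8 at 0.23 ± 0.26. The T-type genes Cacna1g (18.3, 16.3 and 14.5 CPM), Cacna1h (23.3, 11.7 and 12.2 CPM) and Cacna1i (42.8, 30.8 and 30.5 CPM) differed from saline by 0.04 ± 0.16, 0.07 ± 0.40 and 0.16 ± 0.19. None of the 8 members had groups that did not overlap (2.14% of tested genes had all yoked libraries above, and 2.15% below, all saline libraries), and without saline library 1 Cacna1c (−0.08) and Cacna1d (−0.03) turned below 0. Within numbers 1, 2 and 3 the medians were 0.19, 0.16 and 0.09, and the overall median without saline library 1 was 0.08.

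Cocaine against yoked libraries gave the largest fitted differences, with the same libraries as in the other comparisons and therefore no separate evidence. No member passed (adjusted p 0.972 for each in edgeR with Benjamini-Hochberg adjustment), percent called was 0, and 182 genes had an unadjusted p under 0.05. DESeq2 called 0 members too. All 8 were below 0, with a median of −0.40 beside 0.01 over all genes. The differences were −0.50 ± 0.26 for Cacna1e, −0.47 ± 0.42 for Cacna1c, −0.46 ± 0.40 for Cacna1d, −0.45 ± 0.24 for Cacna1b and −0.35 ± 0.15 for Cacna1a. T-type genes had smaller values, −0.28 ± 0.19 for Cacna1i, −0.22 ± 0.16 for Cacna1g and −0.18 ± 0.40 for Cacna1h.

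In the fit without a replicate term Cacna1a was the 1 member with an unadjusted p under 0.05 in edgeR, beside 182 of 16417 genes. With that term there were 5 such members, beside 3006 of 16417 genes. Without the libraries numbered 1 there were 4, beside 1785 of 16525 genes. For Cacna1a alone did all cocaine libraries lie below all yoked libraries, as they did for 2.55% of tested genes; no member had the reverse, beside 3.08%. Within numbers 1, 2 and 3 the medians were −0.61, −0.21 and −0.40; Cacna1g (0.11) and Cacna1i (0.06) were higher in cocaine at number 3. With a term for replicate number, adjusted p in edgeR was 0.130 for Cacna1b, Cacna1c, Cacna1d and Cacna1e, 0.156 for Cacna1a, and at most 0.524 for the T-type genes. Without the libraries numbered 1 the median was −0.30 and the lowest adjusted p 0.323. With the length trend removed, all 8 stayed below 0 with a median of −0.20, and without cocaine library 1 the median was −0.25. A test for any difference among the 3 groups called 0 of 8 members and 0 percent of genes, with 79 genes at an unadjusted p under 0.05, and DESeq2 called 0 members.

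**Figure D3:**
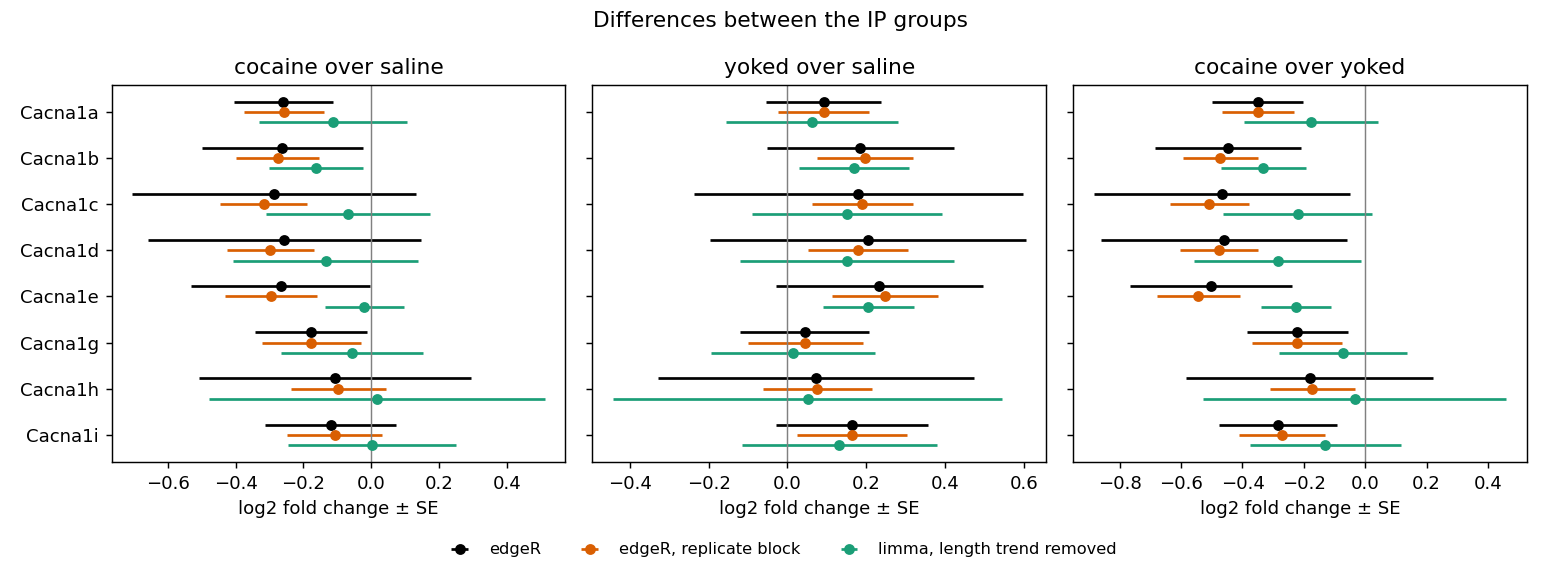
Fitted log2 differences (± SE) of the 8 genes between IP groups, by edgeR, edgeR with a replicate block, and limma with the length trend removed. In edgeR all 8 points lie left of 0 for cocaine over saline and cocaine over yoked and right of 0 for yoked over saline, with wide bars for Cacna1c, Cacna1d and Cacna1h that narrow once the replicate number is a term.

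Cell type markers were read in the same fits, and none was called. In cocaine against saline, 1 of 10 layer 5 markers was above 0 (median −0.18; summed 486 to 938 CPM in cocaine and 570 to 1080 CPM in saline), 8 of 8 oligodendrocyte markers (median 0.25; summed 666 to 1768 CPM and 566 to 1625 CPM) and 8 of 8 interneuron markers (median 0.31; summed 550 to 997 CPM and 511 to 874 CPM). Endothelial and mural markers had 0 of 8 above 0 (median −0.49; summed 16.6 to 20.4 CPM and 22.5 to 25.7 CPM). Microglia markers had 7 of 8 above 0 (median 0.31), astrocyte markers 6 of 8 (median 0.20) and nuclear noncoding RNAs 0 of 6 (median −0.27). Layers 2 to 4 and layer 6 had 3 of 6 each (median 0.02 for both). In yoked against saline 0 of 10 layer 5 markers (median −0.15) and 8 of 8 astrocyte markers (median 0.25) were above 0, as were 6 of 6 nuclear noncoding RNAs (median 0.28). Microglia (median 0.31), interneuron (median 0.17) and oligodendrocyte (median 0.12) markers had 7 of 8 above 0 there. Endothelial and mural markers had 4 of 8 (median −0.03) and layer 6 markers 3 of 6 (median 0.00). No gene of these lists was at 0 counts in all libraries. Nuclear noncoding RNAs had a median of −0.78 in cocaine against yoked, with 0 of 6 above 0. Their part in the differences of the 8 genes was not tested. In such bulk samples fewer cells of a type and less RNA per cell cannot be told apart.

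The rest of the calcium channel complex and calcium handling was read from lists chosen with earlier results of these data known; no gene in them was called in any treatment comparison. In cocaine against saline the 4 beta subunit genes, intracellular partners of high-voltage-activated pores, had a median of −0.04, with Cacnb4 at −0.21 ± 0.29 and Cacnb3 at 0.11 ± 0.15. The 4 alpha-2-delta genes, extracellular partners of these pores, had a median of −0.07, with Cacna2d1 at −0.19 ± 0.23 and Cacna2d3 at −0.01 ± 0.39. Auxiliary subunits were thus nearer to 0 than the high-voltage-activated pores (median −0.26) in this fit, but that difference was not tested. It is read without length correction: with the length trend removed the median of all 8 pore genes was −0.06.

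Other lists gave these values for cocaine against saline. Calcium pumps and exchangers had 2 of 8 genes above 0 and a median of −0.18, with the plasma membrane pump Atp2b2 at −0.25 ± 0.17 and the reticulum pump Atp2a2 at −0.12 ± 0.18. Intracellular release channels had 0 of 6 above 0 and a median of −0.23, with the inositol trisphosphate receptor Itpr1 at −0.25 ± 0.18 and the ryanodine receptor Ryr2 at −0.13 ± 0.28. Calcium-activated potassium channels had 1 of 5 above 0 and a median of −0.21, with the large-conductance channel gene Kcnma1 at −0.31 ± 0.26 and the small-conductance channel gene Kcnn3 at −0.25 ± 0.66. Gamma subunits and related AMPA receptor partners had 2 of 6 above 0 and a median of −0.05, with Cacng3 at −0.07 ± 0.22 and Cacng2 at −0.27 ± 0.23. Channel regulators and release partners had 9 of 16 above 0 and a median of 0.08, with the SNARE gene Snap25 at 0.09 ± 0.24 and the calmodulin gene Calm2 at 0.09 ± 0.32.

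The same lists in cocaine against yoked had medians of −0.08 for beta, −0.10 for alpha-2-delta and −0.10 for gamma subunits, −0.27 for pumps and exchangers, −0.23 for release channels, −0.02 for calcium-activated potassium channels and 0.13 for regulators. In yoked against saline these medians were 0.02, 0.01, −0.03, 0.08, 0.07, 0.00 and −0.05 in the same order of lists. The pumps and exchangers had 0 of 8 genes above 0 in cocaine against yoked and 7 of 8 in yoked against saline, 2 comparisons that share the yoked libraries.

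The libraries numbered 1 differed from numbers 2 and 3 in 9083 of 16417 genes, whereas 0 genes were called between treatments in edgeR. The contrast was made because earlier results of these data showed it, and it describes the libraries on which the treatment comparisons rest. In edgeR with terms for treatment and number, 5 of 8 members passed (Benjamini-Hochberg adjusted), 1 higher and 4 lower, beside percent called of 27.6 higher and 27.7 lower over all genes. The shares among 8 genes (1 higher, 4 lower) are to be read against those backgrounds.

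The L-type genes had the largest decreases: Cacna1c fell by 1.06 ± 0.12 on the log2 scale (edgeR adjusted p = 3.8e-06) and Cacna1d by 1.02 ± 0.12 (adjusted p = 5.1e-06). For Cacna1c the range was 39.1 to 63.7 CPM in number 1 libraries and 81.4 to 130.1 CPM in the other 6, and for Cacna1d 12.1 to 17.9 CPM against 25.4 to 37.7 CPM. Neither pair of ranges overlapped, which held in this direction for 24.1% of tested genes. By treatment, Cacna1c was lower in number 1 by −1.01 (saline), −1.22 (cocaine) and −0.93 (yoked), and Cacna1d by −0.86, −1.17 and −1.04.

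The N- and R-type genes were lower by less: Cacna1b fell by 0.50 ± 0.11 (edgeR adjusted p = 0.00123) and Cacna1e by 0.55 ± 0.12 (adjusted p = 0.00131). Their ranges overlapped, with 83.0 to 136.6 CPM against 124.0 to 175.0 CPM for Cacna1b and 132.0 to 251.1 CPM against 225.9 to 324.2 CPM for Cacna1e. Cocaine library 1 was the lowest of all 9 for both. The P/Q-type gene Cacna1a differed by 0.12 ± 0.10 (adjusted p = 0.328), the T-type genes Cacna1g by 0.08 ± 0.13 (adjusted p = 0.624) and Cacna1i by 0.22 ± 0.12 (adjusted p = 0.138), and none of these 3 was called; without cocaine library 1, Cacna1i was called at 0.37 (adjusted p = 0.0104).

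Cacna1h, a T-type gene, was the 1 member called higher in this fit, by 0.95 ± 0.12 (edgeR adjusted p = 1.1e-05), with 20.1 to 23.3 CPM in number 1 libraries and 9.87 to 12.2 CPM in the other 6. The ranges did not overlap, as held in this direction for 22.4% of tested genes, and the rise was 0.97 in saline, 0.90 in cocaine and 0.96 in yoked libraries. Within a library, which needs no scaling between libraries, Cacna1h had 41.2, 51.4 and 36.6 counts per 100 Cacna1c counts in saline, cocaine and yoked libraries numbered 1, and 9.39 to 12.1 in the other 6. The input had 11.7 and the unbound library 10.2. These 2 genes were picked as the member with the largest increase and the one with the largest decrease in this contrast, so their ratio restates it without a scaling factor and does not stand for T- and L-type messages in general.

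**Figure D4:**
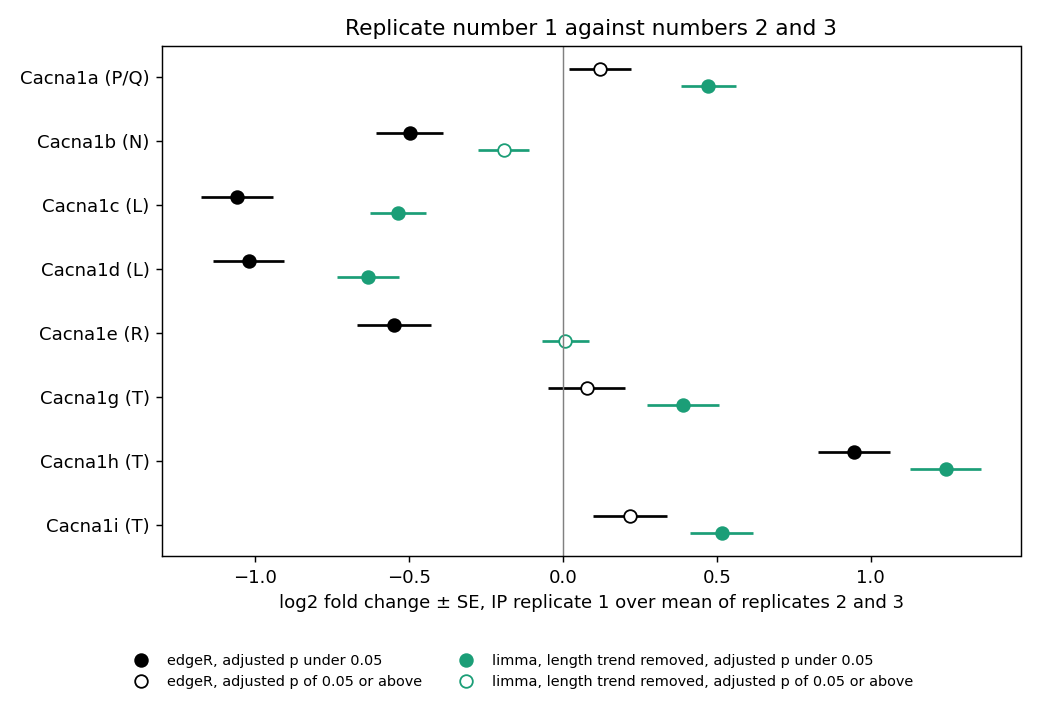
Log2 difference (± SE) of IP libraries numbered 1 over the mean of those numbered 2 and 3, by edgeR and by limma after removal of the length trend; filled points have an adjusted p under 0.05. Cacna1c and Cacna1d lie left of 0 and Cacna1h right of 0 in both fits, while Cacna1b and Cacna1e lose their call and Cacna1a, Cacna1g and Cacna1i gain one once length is removed.

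The 5 calls were the same with size factors by median of ratios, with total counts in place of TMM, and with DESeq2. Removing the length trend left Cacna1c (−0.53, limma adjusted p = 0.000156), Cacna1d (−0.63, adjusted p = 7.8e-05) and Cacna1h (1.24, adjusted p = 3.3e-07) called in the same directions. Cacna1b (−0.19, adjusted p = 0.0597) and Cacna1e (0.01, adjusted p = 0.941) were no longer called. Cacna1a (0.47, adjusted p = 0.000375), Cacna1g (0.39, adjusted p = 0.0103) and Cacna1i (0.52, adjusted p = 0.000612) were called higher. Members called in this fit were thus 4 higher and 2 lower, beside 3985 higher and 3772 lower of 14529 genes. Markers that moved with the same libraries were 8 of 10 layer 5 genes higher (median 0.93), 6 of 8 astrocyte genes lower (median −1.02), 6 of 8 oligodendrocyte genes lower (median −0.98), 7 of 8 interneuron genes lower and 1 higher (median −0.67), 5 of 8 microglia genes lower (median −1.42), 5 of 6 oligodendrocyte precursor genes lower and 1 higher (median −1.32), and 6 of 6 nuclear noncoding RNAs lower (median −3.94). Of the endothelial and mural genes 4 of 8 were higher and 2 lower (median 0.52). Striatal projection neuron genes had 4 of 8 lower and 1 higher (median −0.36), and thalamic genes 3 of 6 lower and 1 higher (median −0.39). Genes of layers 2 to 4 had 4 of 6 lower and 1 higher (median −0.66), and layer 6 genes 4 of 6 lower (median −0.42). Their part in the differences of the pore subunits was not tested.

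Partner genes were split in the same contrast. The beta subunit genes Cacnb2 (−0.75 ± 0.12) and Cacnb4 (−0.65 ± 0.11) fell, 2 of 4, and the alpha-2-delta genes Cacna2d3 (0.93 ± 0.09), Cacna2d1 (0.43 ± 0.10) and Cacna2d2 (0.41 ± 0.11) rose, 3 of 4. Both groups of calls were the same under each of the other scalings and with the length trend removed. Among calcium-activated potassium channels Kcnn2 (0.87 ± 0.13), Kcnn1 (0.84 ± 0.16) and Kcnmb4 (0.51 ± 0.12) rose, and Kcnn3 (−1.78 ± 0.16) and Kcnma1 (−0.50 ± 0.13) fell. Kcnma1 lost its call with the length trend removed (−0.04, limma adjusted p = 0.678), and the other 4 kept theirs. Nalcn rose by 0.38 ± 0.09.

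Among regulators and release partners 7 of 16 rose and 4 fell. The active zone scaffolds Rims1 (−0.95 ± 0.11) and Rims2 (−0.78 ± 0.11), which tether presynaptic calcium channels, fell, as did the anchoring protein gene Akap5 (−0.93 ± 0.14). Calm2 (0.71 ± 0.11) and Calm3 (0.37 ± 0.11), which encode calmodulin, the calcium sensor of these channels, rose. With the length trend removed the call of Calm3 was lost (0.09, limma adjusted p = 0.407) and Calm2 was at 0.25, while Rims1, Rims2 and Akap5 were still called lower.

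Gamma subunits gave 2 higher and 3 lower of 6, release channels 2 higher and 1 lower of 6, and pumps and exchangers 4 higher and 1 lower of 8. With the length trend removed these counts were 0 higher and 4 lower, 4 higher and 0 lower, and 6 higher and 0 lower. The 4 pump and exchanger genes called higher were 2 with size factors by median of ratios and 1 without TMM. The counts of these 3 lists therefore rest on the scaling and on the length correction.

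Between numbers 2 and 3, edgeR called 0 of 8 members and 0 percent of genes with 320 genes at an unadjusted p under 0.05. DESeq2 called 44 genes, none of them a member, and the median of the 8 was 0.00.

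To place the pore subunits in the tagged fraction, each saline IP library was set against the 1 saline input library, as log2 ratios with no test. No member was 2-fold different in all 3 libraries, beside 0.0742% of genes higher and 0.0445% lower. By the same rule 0 of 10 layer 5 markers were called, with 9 above 0 and a median of 0.39. The rule thus did not call markers of the tagged cell type either, and a missing call says little about the pore genes. Cacna1a (0.33, 0.11 and 0.24 in libraries 1, 2 and 3) and Cacna1g (0.21, 0.01 and 0.20) were above the input in all 3, as were 18.9% of genes, though Cacna1g in library 2 was at −0.02 without TMM and −0.05 with the length trend removed, and no member was below it in all 3, beside 17.6%. Cacna1h (0.92, −0.12 and 0.00), Cacna1c (−0.90, 0.05 and 0.16) and Cacna1d (−0.80, 0.02 and 0.08) were far from the input in library 1 and near it in libraries 2 and 3. In libraries 2 and 3 the 8 genes lay between −0.20 and 0.24.

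The means over the 3 saline libraries were 0.26 ± 0.57 (SD, n = 3) for Cacna1h, 0.23 ± 0.11 for Cacna1a, 0.14 ± 0.11 for Cacna1g, 0.05 ± 0.22 for Cacna1i and 0.01 ± 0.29 for Cacna1b. Below 0 were Cacna1e at −0.07 ± 0.28, Cacna1c at −0.23 ± 0.58 and Cacna1d at −0.23 ± 0.49. The median of the 8 was 0.03 beside 0.00 over all genes, and an edgeR fit over all 11 libraries called 0 members and 0 genes, with 106 genes at an unadjusted p under 0.05.

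Against the unbound fraction of the cocaine group, again 1 library and no test, no member was 2-fold different in all 3 IP libraries, beside 0.399% of genes higher and 2.21% lower. All 3 T-type genes were above the unbound library in all 3 cocaine libraries, as were 31.8% of genes; with the length trend removed Cacna1i in library 2 was at 0.00, just below it. Cacna1h had ratios of 1.73, 0.96 and 0.71 (mean 1.13 ± 0.53, SD, n = 3), Cacna1g 0.27, 0.27 and 0.52 (0.35 ± 0.14) and Cacna1i 0.04, 0.02 and 0.28 (0.11 ± 0.15). The unbound library held 120 Cacna1h counts, with an exact Poisson 95% interval of 99.5 to 143 that covers counting error only, or 5.71 CPM. Ambiguous reads made up 7.34% of its entries, against 1.56% to 1.91% in IP libraries, and Cacna1h shares 158 bp of exon with Tpsg1. What this does to the ratio was not tested.

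The presynaptic genes Cacna1a (−0.19, −0.24 and −0.05) and Cacna1b (−0.82, −0.02 and −0.23) were below the unbound library in all 3 with this scaling, as were 25.7% of genes. That count rests on the scaling: with TMM over all 11 libraries Cacna1a was at 0.01 in library 3 and Cacna1b at 0.05 in library 2, without TMM they were at 0.05 and 0.07 there, and with the length trend removed Cacna1a was at 0.35 in library 1. The L-type genes changed sign between libraries with this scaling: Cacna1c had −0.60, 0.80 and 0.47 and Cacna1d −0.78, 0.50 and 0.30. Cacna1e had a mean of −0.22 ± 0.52. With the length trend removed Cacna1c was above the unbound library in all 3 (0.34, 0.88 and 0.59). Cacna1e was then above it in all 3 as well (0.23, 0.27 and 0.13, mean 0.21 ± 0.07), while Cacna1d still changed sign (−0.17, 0.49 and 0.31). In an edgeR fit over all 11 libraries, with the lone unbound library assumed to vary like the others, no member was called, and the lowest Benjamini-Hochberg adjusted p of the 8 in edgeR was 0.537, for Cacna1h.

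**Figure D5:**
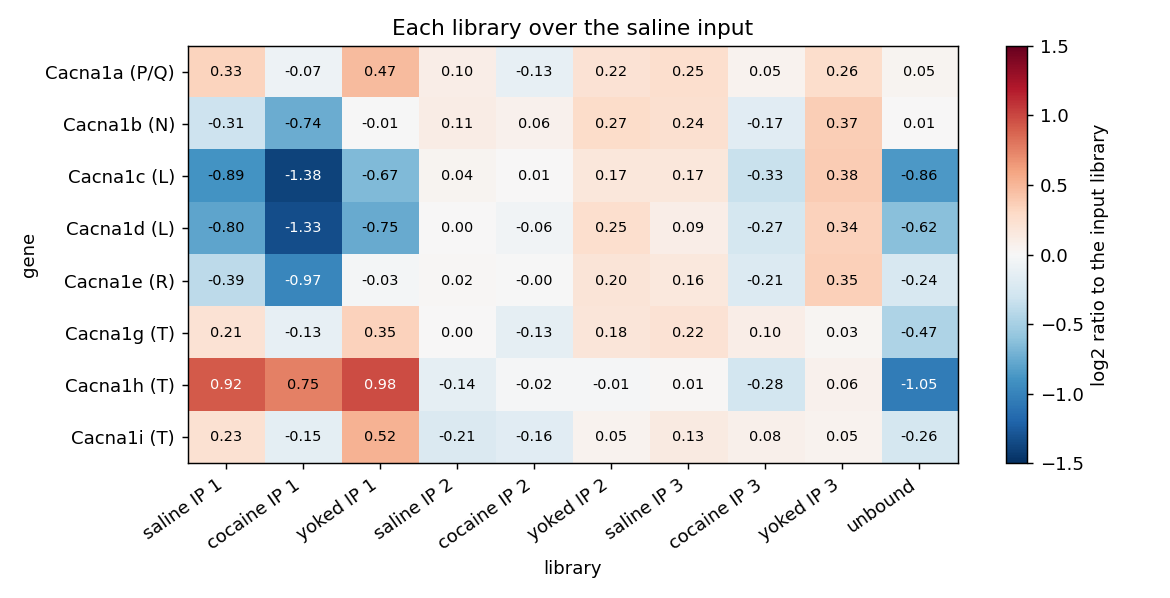
Log2 ratio of each library to the saline input for the 8 genes, scaled over all 11 libraries (rows are genes, columns are libraries). Cacna1c and Cacna1d lie between −1.38 and −0.67 in the IP libraries numbered 1, and Cacna1h lies between 0.75 and 0.98 there and at −1.05 in the unbound library.

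Profiles over the 11 libraries were compared by the root mean square difference between log2 CPM profiles, each centred on its own mean, among 8797 genes that reached 10 CPM on average. It is a description: the libraries share depth, length trend and replicate number. Cacna1b and Cacna1e were each other's second nearest gene (0.08), after Vldlr for Cacna1b (0.08) and Plxna4 for Cacna1e (0.06). Cacna1c was closest to Rgp1 (0.05) and Ildr2 (0.05), and Cacna1d to Prr14l (0.08) and Asb1 (0.09); Cacna1d ranked 14 from Cacna1c and Cacna1c ranked 8 from Cacna1d. Cacna1a was closest to Tecpr2 (0.07) and Creg2 (0.07), and its nearest member was Cacna1i at rank 49.

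Cacna1g was closest to Syt11 (0.09) and Kif1a (0.09), and Cacna1i to Znfx1 (0.06) and Tmem131 (0.08); they ranked 36 and 24 from each other. Cacna1h was closest to Sorl1 (0.09) and to Bcl6 (0.10), which is also in the layer 5 marker list. Its nearest member, Cacna1g, ranked 2626 of 8797 at 0.45, beside a median over all genes of 0.54.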

How the data were processed

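The rule that names the 8 genes uses symbols and no measured value, but the genes and all lists were chosen with earlier results of these data known. The deposited tables hold raw counts for each gene symbol. Per the submitters' processing notes the authors used STAR 2.0.0e, HTSeq and mm10; the HTSeq version, annotation and strand setting were not given in the sources used here. Of 32537 entries per library 32531 are genes. The special entries were left out of library sizes: reads aligned to several places made up 28.3% to 47.0% of entries, reads outside genes 6.28% to 15.5% and ambiguous reads 1.56% to 7.34%. The unbound library alone gave the 28.3% and the 7.34%, against 35.6% to 47.0% and 1.56% to 1.91% in IP libraries. Counts leave out reads shared by paralogs and, without molecular identifiers, include PCR copies; at these depths the spread between libraries, not counting error, limits precision.

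The 9 IP libraries were fitted together by treatment in edgeR 4.0.16 (R 4.3.3) with TMM, filterByExpr, robust quasi-likelihood and Benjamini-Hochberg adjustment over 16417 genes at 0.05; all 8 members passed the filter. Fraction ratios used a prior count of 2 and genes averaging 1 CPM or more, called where all 3 libraries differed at least 2-fold. RPKM and CPM were computed from the counts; lengths came from GENCODE M21 and matched 23113 symbols. Limma 3.58.1 was used for the length correction (lowess span 0.3) and DESeq2 1.42.0 as an alternative, with leaving out single libraries, other scalings, no filter and a replicate term. Same-numbered libraries of different treatments deviated together (r 0.38 to 0.79 in 9 pairs, against −0.74 to 0.62 in 18 other pairs). By this measure number 1 was set apart, but numbers 2 and 3 were not told apart from each other. Cocaine library 2 and yoked library 3 had r 0.62, against 0.38 for saline library 3 and cocaine library 3. Deviations were taken from the mean of each treatment, so 1 outlying library pushes the rest of its treatment together. The labels do not say what a number marks. Replicate pairs differed beyond sampling noise. Named genes were the 8 members, genes from the lists past the threshold (some are given only in the counts, and 1 result is not reported here) or else the 2 with the highest mean level in each list, and for each member the 2 genes with the most similar profile. The fits were tested on simulated data with known changes. All genes had the same dispersion there, and the data for the treatment fits held no effect of replicate number. That test therefore does not show how the treatment fits behave in these libraries. No sequence is shown.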

Additional observations from a re-analysis of the deposited data

How the results depend on the processing

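Calls on the members changed in no treatment comparison under any alternative run: 0 of 8 passed each time, and for all genes too the count was 0 in all 3 pairwise comparisons of treatments and in the test of any difference. The replicate block gave medians of −0.27 (cocaine over saline), 0.17 (yoked over saline) and −0.41 (cocaine over yoked), beside −0.26, 0.17 and −0.40 without it, and changed no call.

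With the length trend removed, alone or with the replicate block, the median of the 8 in cocaine against saline was −0.063, with Cacna1h at 0.017 and Cacna1i at 0.0020; for number 1 against numbers 2 and 3 the median was 0.20 beside −0.21, with Cacna1e at 0.0077. Without the 3 libraries numbered 1, the yoked against saline median was 0.11, Cacna1i in cocaine against saline 0.0057 and Cacna1g in yoked against saline −0.013. The cause was not tested.

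Leaving out 1 library at a time, the median ran from −0.35 to −0.075 in cocaine against saline and from 0.083 to 0.25 in yoked against saline. Single genes crossed 0. In cocaine against saline Cacna1c ran from −0.61 to 0.020, Cacna1d from −0.53 to 0.041 and Cacna1h from −0.47 to 0.30. In yoked against saline Cacna1c ran from −0.084 to 0.43, Cacna1d from −0.030 to 0.47, Cacna1g from −0.045 to 0.13, Cacna1h from −0.32 to 0.48 and Cacna1i from −0.014 to 0.26. Cacna1h in cocaine against yoked ran from −0.55 to 0.22 and Cacna1g in number 1 against numbers 2 and 3 from −0.0068 to 0.17. In that last comparison Cacna1i was called without cocaine library 1 (0.37, edgeR adjusted p = 0.0104), and the 5 calls stood in every such fit.

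Between numbers 3 and 2 the count of all genes was 0 in edgeR, 8 without the expression filter, 44 in DESeq2, 4 with the length trend removed, 1 in limma without it (chosen after seeing the data) and 0 to 7 leaving out 1 library. For saline IP over input 16 genes were called, 632 without the filter, 25 to 69 leaving out 1 library and 0 in edgeR over all 11 libraries; for cocaine IP over unbound these were 353, 1326, 435 to 626 and 10. With the longest transcript, RPKM was 16.6 for Cacna1e, 6.80 for Cacna1c, 5.18 for Cacna1a and 1.85 for Cacna1g. The lone input and unbound libraries and 3 libraries per group limit what can be seen.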
